A study of Mus musculus with 7 samples.

Results

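The genes described here mark the cells of blood vessels in the brain. They are 39 genes chosen by name, 28 of endothelial cells and 11 of mural cells (pericytes and smooth muscle), out of 47729 genes in the count table. RNA was taken from whole forebrain at postnatal day 15 of F1(C57BL/6 X 129Sv) mice carrying the mutant allele Lhx6tm2Vpa, in which *Lhx6*, a transcription factor of interneurons from the medial ganglionic eminence, is disrupted. Control mice were *Lhx6*+/- (4 libraries) and mutants *Lhx6*-/- (3 libraries). Every library pooled 2 animals, so a replicate is a pool, and no wild-type mice were analysed here: the controls carry 1 copy of the mutant allele. The mutation is in the germline and is carried by every cell, vessels included.

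Brain capillaries are lined by endothelial cells that are sealed to each other by tight junctions and carry their own set of transporters, which together make up the blood-brain barrier. Pericytes lie on the outside of capillaries and are recruited by endothelial Pdgfb through the receptor Pdgfrb, while arteries and veins are wrapped in smooth muscle. Neural cells supply Vegfa, which drives vessel growth through Kdr and Flt1, and Wnt7a and Wnt7b, which induce barrier genes in the endothelium.

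Libraries are called by the numbers in the column headers, control 2, 3, 10 and 11 and mutant 5, 12 and 13, and their expected counts summed to between 32556304 and 38069151. *Lhx6* (GRCm38 chromosome 2, 36081953 to 36105408) had normalized counts of 615, 522, 476 and 522 in the controls and 70.9, 76.6 and 70.1 in the mutants, in the order of libraries above, so the genotype labels held in all 7 libraries. Normalized counts are counts scaled to a common library size. Along the first principal component, with 39.6% of the variance, libraries 2, 3 and 5 stood apart from libraries 10 to 13, and control 3 was the most extreme; both genotypes are present on either side, and what this split is was not given in the sources used here. Genes of forebrain (6 listed, all tested) summed to between 16413 and 22858 normalized counts per library. Of 5 hindbrain genes 3 did not reach the minimum for testing. Together the 5 summed to 99 in control 3 and to between 27 and 47 in the other libraries. *Gabra6* was at 12.1 in control 3 and 0 in every other library, and whether control 3 held more hindbrain tissue was not tested. The defining endothelial and mural markers were present in every library, and none of the 39 genes was at 0 in any library. All 39 passed the filter on low counts.

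As a group the vascular genes lay above control in the mutant forebrain, most by a small amount. Of the 39 genes, 36 (92.3%) had a positive log2 fold change, against 47.8% of the 19684 genes tested, and their median was 0.37, against -0.0128 over all genes. Past an adjusted p of 0.05 in edgeR's quasi-likelihood test, 3 rose in mutants, *Vwf*, *Mfsd2a* and *Tagln*, and 1 fell, *Cd34*. The background of that test was 2.97% of genes called higher and 1.87% called lower, together 4.85%. Before adjustment, 21 of the 39 were higher at a p of 0.05 or less and 1 was lower, against 9.92% of all genes called higher in this way and 18.2% in either direction. The mutant libraries all lay above every control library for 17 of the genes (10.7% of all genes) and all below for 1 (9.00% of all genes). In bulk tissue, more or fewer cells of a type and more or less RNA per cell cannot be told apart.

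Endothelial and mural genes had similar medians, and the difference between them was not tested. The 28 endothelial genes had a median log2 fold change of 0.35, with 27 positive, and the 11 mural genes one of 0.40, with 9 positive. Summed over all 39 genes, normalized counts were 43357, 42508, 41696 and 44319 in the controls and 55087, 52963 and 55308 in the mutants, and the genotypes did not overlap. The sum over mural genes alone ran from 9988 to 10770 in controls and from 11638 to 13763 in mutants.

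**Figure D1:**
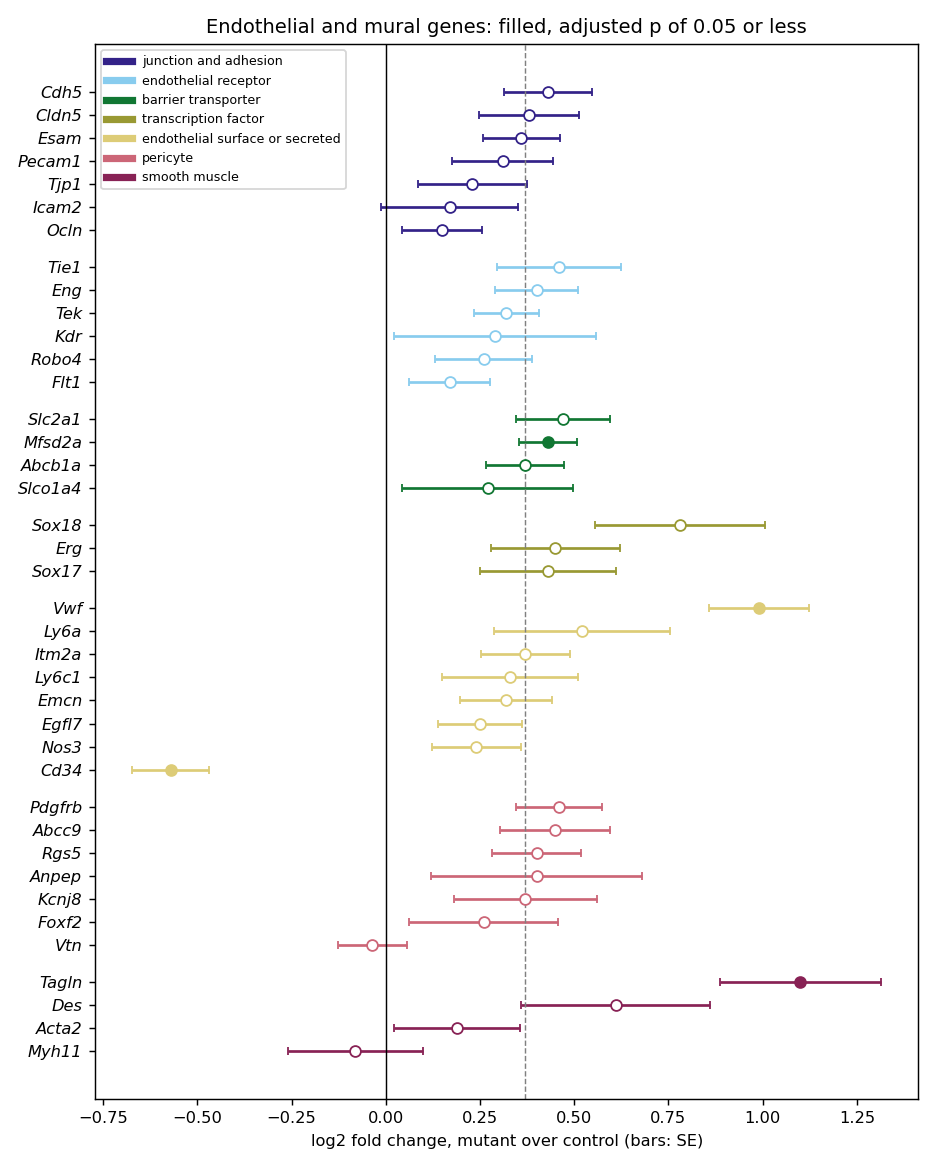
Log2 fold change of each of the 39 genes, mutant over control, with its standard error, grouped by role. Filled points passed an adjusted p of 0.05 in edgeR's test; the dashed line is the median of the 39 genes, 0.37. *Cd34* is the only gene far to the left of 0, and *Tagln* and *Vwf* lie farthest to the right.

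The called genes with a RefSeq promoter entry, *Mfsd2a* and *Cd34*, moved in opposite directions, and the 250 bases upstream of their starts are printed for comparison. The sequences are from RefSeq on GRCm38.p6, at chr4:122961189-122961438 on the minus strand for *Mfsd2a* and chr1:194938571-194938820 on the plus strand for *Cd34*, 5′ to 3′. Capitals mark GGAA or its reverse complement TTCC, the core to which ETS factors such as Erg bind.
Mfsd2a: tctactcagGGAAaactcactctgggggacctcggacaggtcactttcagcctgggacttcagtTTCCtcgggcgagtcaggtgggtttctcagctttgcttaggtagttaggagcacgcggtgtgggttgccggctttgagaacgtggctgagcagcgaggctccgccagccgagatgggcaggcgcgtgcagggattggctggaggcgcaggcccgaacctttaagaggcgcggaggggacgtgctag
Cd34: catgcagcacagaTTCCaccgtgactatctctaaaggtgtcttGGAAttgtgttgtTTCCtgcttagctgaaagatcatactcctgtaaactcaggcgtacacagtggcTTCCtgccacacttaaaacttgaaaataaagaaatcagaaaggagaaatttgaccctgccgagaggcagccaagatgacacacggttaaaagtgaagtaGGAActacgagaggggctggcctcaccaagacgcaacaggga
The window of *Mfsd2a* held 2 such cores and that of *Cd34* held 5. An entry was found for 27 of the 39 genes, and 23 of those windows (85.2%) held at least 1 core. Of all 32851 promoter windows 93.4% did. A core this common could not show an excess in 27 windows, so whether it sets the vascular genes apart is not decided. The letters GATA or TATC, the core for GATA factors, were in 14 of the 27 windows (51.9%) and in 53.6% of all. A match is a run of letters and not a binding site.

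Junction and adhesion genes hold endothelial cells together. *Cldn5*, the main claudin of brain endothelium, had the highest level per kb of exon among them in controls (1266 normalized counts per kb). Its normalized counts were 2065, 2037, 1488 and 1571 in controls and 2529, 2160 and 2289 in mutants, without overlap, with a log2 fold change of 0.38 ± 0.133 (SE) and an adjusted p of 0.171. For *Cdh5*, the cadherin of endothelial adherens junctions, the counts were 782, 597, 786 and 810 against 975, 1007 and 1022. Its mutants also lay above all controls, with control 3 low among the latter, and the log2 fold change of 0.43 ± 0.116 had an adjusted p of 0.0772. None of the 7 genes of this group passed the test. The others, *Ocln* and *Tjp1* (tight junctions), *Esam*, *Pecam1* and *Icam2* (adhesion), had log2 fold changes between 0.15 and 0.36, and the genotypes did not overlap for *Tjp1* and *Esam*. *Cdh5* and *Pecam1* passed once control 3 was left out, with adjusted p of 0.0389 and 0.0483.

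Receptors of growth and guidance factors on endothelium were all on the positive side, and none of 6 passed. *Eng*, a co-receptor of the TGF-beta family, had the highest level per kb (342) and normalized counts of 1550, 1196, 1271 and 1524 in controls against 1689, 1872 and 1914 in mutants (log2 fold change 0.40 ± 0.109, adjusted p 0.0808). *Tek*, the angiopoietin receptor, gave 591, 638, 591 and 653 against 747, 779 and 784 (0.32 ± 0.0864, adjusted p 0.0792). Neither gene overlapped between the genotypes. *Tie1*, the partner of Tek, had a log2 fold change of 0.46, *Robo4* of 0.26, and the Vegfa receptors *Kdr* and *Flt1* of 0.29 and 0.17. *Kdr* varied more between libraries than between genotypes, from 904 to 1891 normalized counts in controls and from 1120 to 1929 in mutants, and its counts were high in control 2 and mutant 5.

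Among the barrier transporters, *Mfsd2a* rose in mutants. The gene encodes the lipid transporter through which brain endothelium takes up docosahexaenoic acid and which keeps vesicle traffic across it low (chromosome 4, 122946850 to 122961188). Normalized counts were 2156, 2122, 2230 and 2147 in controls and 3057, 2640 and 3045 in mutants, so that the controls lay within a narrow band (SD 46.4) and every mutant was above it. The log2 fold change was 0.43 ± 0.0763 with an adjusted p of 0.016. Without mutant 5 or mutant 13 the call was lost, with an adjusted p of up to 0.1. *Slc2a1*, the glucose transporter of the barrier, had the highest level per kb of the group (1221) and counts of 3586, 4478, 4334 and 4730 against 5254, 6843 and 5652. Its mutants were all above the controls, and its log2 fold change of 0.47 ± 0.124 had an adjusted p of 0.0732. *Abcb1a*, the drug efflux pump P-glycoprotein, was at 0.37 without overlap (adjusted p 0.0816), with 21.5% of its 36-base words shared with other genes, mostly its paralogue *Abcb1b*, so that reads may be split between them. *Slco1a4*, an organic anion transporter, was at 0.27 with overlapping genotypes.

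Of 3 transcription factors of endothelium none passed. *Sox18* was the highest of the 3 per kb (139) and had counts of 280, 210, 180 and 234 in controls against 278, 522 and 365 in mutants. Mutant 5 lay within the controls and mutant 12 far above them, and the log2 fold change of 0.78 ± 0.226 had an adjusted p of 0.0958. *Erg* was at 0.45 and *Sox17* (16.8% of its exon bases in another gene) at 0.43, and for all 3 genes the genotypes overlapped.

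The surface and secreted proteins held the largest endothelial increase and the only decrease. *Vwf* encodes von Willebrand factor, which endothelium stores and releases to bind platelets, and which in brain is strongest in veins and larger vessels (chromosome 6, 125546774 to 125686679). Normalized counts were 2141, 1531, 1506 and 1969 in controls and 3713, 3320 and 3608 in mutants, or 199% of the control mean, with a log2 fold change of 0.99 ± 0.133 and an adjusted p of 0.00522. The lowest mutant stood well above the highest control, and the call held with every library left out in turn (adjusted p between 0.00559 and 0.0295).

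*Cd34*, a sialomucin on the surface of capillary endothelium and of blood progenitors, moved the other way (chromosome 1, 194938819 to 194961279). Its counts were 2096, 2557, 2094 and 2166 in controls and 1650, 1366 and 1482 in mutants, a mean of 67.3% of control, with a log2 fold change of -0.57 ± 0.102 and an adjusted p of 0.0166. All mutants were below all controls, and control 3 was higher than the other controls. The call was lost without mutant 12 or mutant 13 (adjusted p of up to 0.0946). *Itm2a* had the highest level per kb of this group (871), with counts of 1215, 1555, 1653 and 1652 against 1797, 2000 and 2103 (0.37 ± 0.118, adjusted p 0.129). *Egfl7*, *Emcn*, *Nos3* (the endothelial nitric oxide synthase), *Ly6c1* and *Ly6a* were between 0.24 and 0.52, and none passed. The last pair are less certain, since 42.9% and 28.8% of their 36-base words occur in other genes, and 32.3% of the exon bases of *Nos3* lie in another annotated gene.

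**Figure D2:**
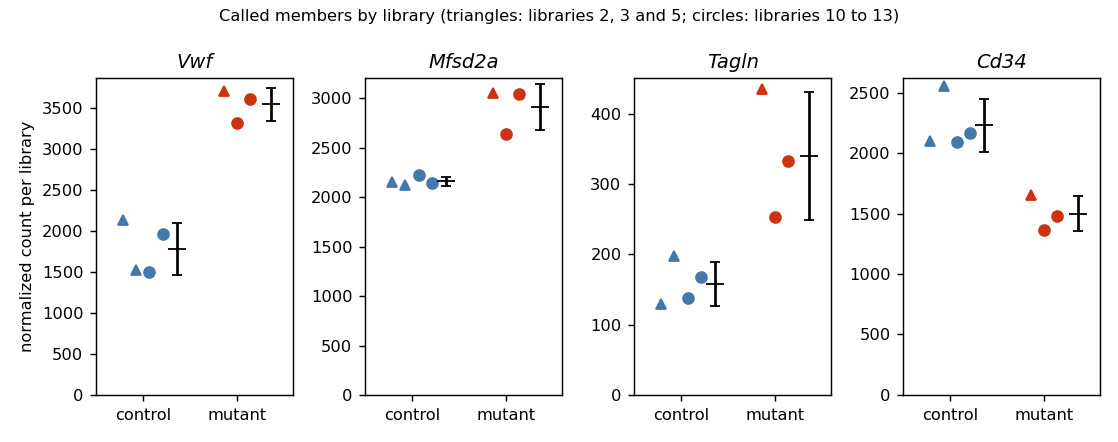
Normalized counts of *Vwf*, *Mfsd2a*, *Tagln* and *Cd34* in each library, with the mean and SD of each genotype beside the points (4 control and 3 mutant libraries). Triangles are libraries 2, 3 and 5 and circles are libraries 10 to 13; in all 4 genes the genotypes are separate.

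Pericyte genes were on the positive side except 1, and none of 7 passed. *Rgs5*, a regulator of G-protein signalling that marks pericytes, had the highest level per kb (1145) and counts of 5079, 6011, 4857 and 4869 in controls against 7157, 5796 and 7581 in mutants. Mutant 12 lay below control 3, and the log2 fold change of 0.40 ± 0.119 had an adjusted p of 0.109. *Pdgfrb*, the receptor that pericytes need for recruitment, gave 1420, 1020, 1219 and 1343 against 1833, 1630 and 1706. The genotypes did not overlap, and the log2 fold change of 0.46 ± 0.115 had an adjusted p of 0.0589. It passed without control 2 or control 3, with the lowest adjusted p at 0.048. *Kcnj8* and *Abcc9*, the subunits of the potassium channel of pericytes that is closed by ATP, were at 0.37 and 0.45, *Anpep* (an aminopeptidase) at 0.40 and *Foxf2* (a transcription factor) at 0.26. *Vtn*, vitronectin, had a log2 fold change of -0.04 ± 0.0909 and a mutant mean of 97.6% of control, with overlapping genotypes (adjusted p 0.895); its sign turned in libraries 2, 3 and 5 alone and without mutant 13.

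In smooth muscle, *Tagln* rose and the other 3 genes did not pass the test. *Tagln* encodes transgelin, an actin-binding protein of smooth muscle (chromosome 9, 45929628 to 45936058, with 4.1% of its exon bases in *Pcsk7*), and had counts of 129, 198, 138 and 168 in controls and 435, 253 and 333 in mutants. Its level per kb was 99.8 in controls and 215 in mutants, with no overlap, a log2 fold change of 1.10 ± 0.214 and an adjusted p of 0.0233. The call was lost without control 2, 10 or 11 or mutant 5 or 13 (adjusted p of up to 0.0934). *Acta2*, smooth muscle actin, was the most abundant of the group in controls per kb (132) and gave 185, 223, 230 and 303 against 251, 279 and 277. Control 11 was above every mutant, and the log2 fold change of 0.19 ± 0.167 had an adjusted p of 0.63. *Myh11*, the smooth muscle myosin heavy chain, was at -0.08 ± 0.18 (adjusted p 0.877), and *Des*, desmin, at 0.61 ± 0.251 without overlap (adjusted p 0.243).

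The comparison was also made with the split of libraries taken into account. With the run of library numbers (2, 3 and 5 against 10 to 13) as a covariate in edgeR, 18 of the 39 genes passed as higher (background 6.16%) and *Cd34* alone as lower (background 5.04%). To *Vwf*, *Mfsd2a* and *Tagln* this fit added *Cldn5*, *Cdh5*, *Esam*, *Pecam1*, *Tek*, *Tie1*, *Eng*, *Slc2a1*, *Abcb1a*, *Erg*, *Itm2a*, *Egfl7*, *Pdgfrb*, *Rgs5* and *Des*, with adjusted p from 0.00573 for *Cldn5* to 0.0495 for *Eng*. The median log2 fold change of the 39 genes was 0.38 in this fit.

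The runs share no library, and each gave the shift. In libraries 10 to 13 (2 control, 2 mutant) 36 of the 39 genes were positive with a median of 0.39, and 17 passed as higher (background 5.46%). In libraries 2, 3 and 5 (2 control, 1 mutant) 37 were positive with a median of 0.32, and 2, *Vwf* and *Tagln*, passed as higher (background 0.687%); here the lone mutant library is taken to vary as the controls do. Positive in both were 35 genes, and *Cd34* was negative in both, at -0.57 and -0.49. *Icam2*, *Vtn* and *Myh11* changed sign between the runs. *Sox18* was at 1.11 in libraries 10 to 13 and 0.19 in the others, and *Anpep* at 0.06 and 0.86, and these differences between runs were not tested. DESeq2's Wald test, with no covariate, called 13 of the 39 higher (background 5.09%) and *Cd34* lower.

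**Figure D3:**
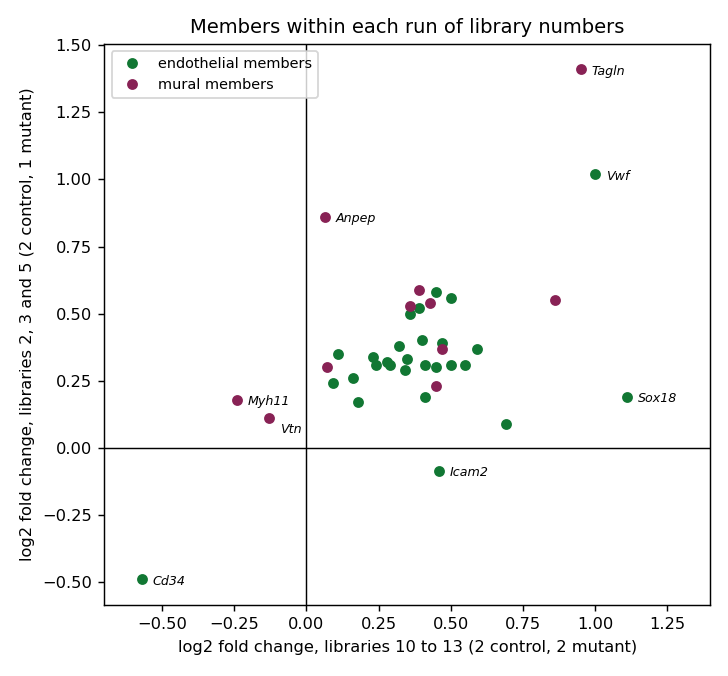
Log2 fold change of the 39 genes in libraries 10 to 13 (horizontal axis, 2 control and 2 mutant) against that in libraries 2, 3 and 5 (vertical axis, 2 control and 1 mutant), which share no library. The upper right of the plot holds 35 genes, and *Cd34* stands alone at the lower left.

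Other genes of the same cells, 22 endothelial and 13 mural, lay on the same side. Of the 35, all tested, 32 were positive with a median log2 fold change of 0.28, and 6 passed as higher and 0 as lower, with 17 higher at an unadjusted p of 0.05 or less. DESeq2 called 9 higher and 0 lower. *Slc7a5*, the large neutral amino acid transporter of the barrier, had counts of 4748, 4474, 4087 and 4607 in controls and 8461, 6284 and 7281 in mutants (0.71 ± 0.11, adjusted p 0.00936), without overlap. *Gja4*, a connexin of arterial endothelium, stood at 186% of the control mean (0.90 ± 0.163, adjusted p 0.0179), and *Cd93* (an endothelial C-type lectin) and *Foxq1* (a forkhead factor of brain endothelium) at 156% and 151% (adjusted p 0.0447 and 0.0338), though 38.1% of the exon bases of *Foxq1* lie in another annotated gene and its counts are uncertain. On the mural side *Mylk*, the kinase that phosphorylates myosin light chain, had counts of 543, 484, 508 and 549 against 908, 829 and 837 (0.72 ± 0.0916, adjusted p 0.00424), and *Atp13a5*, a pericyte gene, stood at 149% of control (adjusted p 0.0481). *Slc7a5* and *Mylk* passed with every library left out in turn; the count fell to 2 without control 10, control 11, mutant 5 or mutant 13 and to 3 without mutant 12. The adjusted p of the other 4 genes reached 0.172 in these fits. With the run as a covariate 12 of the 35 passed.

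The ligands and pathways that act on vessels gave a smaller median. Of 31 genes of growth factor, Notch, apelin and Wnt signalling, all tested, 22 were positive with a median of 0.14, and 2 passed as higher and 0 as lower. At an unadjusted p of 0.05 or less 8 stood out, 6 higher and 2 lower, or 8 of 31 beside 18.2% of all genes, and DESeq2 called 4 higher and 1 lower. *Vegfa* was at 2861, 2609, 1781 and 1677 in controls and 3032, 1612 and 2036 in mutants. Its high libraries were 2, 3 and 5 in both genotypes, and its log2 fold change was -0.00307 ± 0.251 (adjusted p 0.997). *Pdgfb*, the ligand of Pdgfrb, was at 0.21 ± 0.102 (adjusted p 0.327), with control 2 above mutants 12 and 13.

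The Wnt ligands of the barrier pathway had opposite signs. *Wnt7b* rose, with counts of 1729, 1475, 1560 and 1383 in controls against 2661, 2212 and 2294 in mutants (0.64 ± 0.101, adjusted p 0.0105). *Wnt7a* was at 628, 515, 478 and 495 against 437, 400 and 376, all mutants below all controls, with a log2 fold change of -0.39 ± 0.127 and an adjusted p of 0.141. *Apcdd1*, a Wnt inhibitor that is itself a target of the pathway, was the other called gene, at 152% of control (adjusted p 0.0184, lost without control 10 or any 1 mutant library, at up to 0.0791), while the targets *Axin2* and *Lef1* were at -0.15 and -0.06 and did not pass.

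Of 8 genes linked to activated or leaky endothelium 7 could be tested, and 1 passed. *Sele*, E-selectin, to which leukocytes bind, had raw counts of 2, 6, 2 and 2 in controls and 34, 30 and 30 in mutants, with a log2 fold change of 3.28 ± 0.428 and an adjusted p of 0.00472. It reached the minimum of 10 counts in 3 libraries through the mutants alone, so it was tested only because it was high there. When 1 mutant library was left out in turn, it could not be tested. Libraries 10 to 13 alone (2 control, 2 mutant) did test it, at 3.84 with an adjusted p of 0.00349. *Vcam1* (0.08, adjusted p 0.835) and *Icam1* (0.21, adjusted p 0.809) did not pass, and *Selp* had too few counts to be tested.

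Markers of neighbouring cells were compared because vessels are dissected with them. All 8 genes listed for astrocytes and their endfeet were positive, with a median log2 fold change of 0.29. For 5 of them every mutant lay above every control (10.7% of all genes). In edgeR 1 passed, *Gfap*, at 385% of control (adjusted p 7.41e-05), with 5 higher at an unadjusted p of 0.05 or less; DESeq2 called 3 higher, *Gfap*, *Aqp4* and *Gja1*, as did the fit with the run as a covariate. Their summed normalized counts were 196279 to 291149 in controls and 325308 to 377686 in mutants, most of it from *Slc1a2* (138448 to 229945 and 232566 to 288170, adjusted p 0.2). Without *Slc1a2* the sums were 57831 to 66375 and 84401 to 95044, and without *Gfap* as well 51593 to 60167 and 62068 to 67796, so the genotypes did not overlap in any of these sums. Red blood cell genes went the other way, 5 of 5 negative with a median of -0.63. Their summed counts were 11709 to 32103 in controls and 6337 to 18883 in mutants. In edgeR and DESeq2 0 passed, with 0 at an unadjusted p of 0.05, while with the run as a covariate all 5 were lower. Of the 36-base words of *Hba-a1* and *Hba-a2*, 74.6% and 91.7% occur in the other gene, and for *Hbb-bs* and *Hbb-bt* 54.1% and 59.1%. Reads may be split within these pairs, so the 5 genes are not 5 separate measurements. Of 10 fibroblast and meningeal genes 7 were positive (median 0.15, sums of 12153 to 15174 and 13240 to 16545), of 5 perivascular macrophage genes 1 (median -0.11, sums of 508 to 715 and 550 to 614), and of 8 choroid plexus genes 1 (median -0.59, sums of 4781 to 10183 and 2432 to 7850). In these 3 lists 0 genes passed in edgeR. At an unadjusted p of 0.05 or less were 3 fibroblast genes, 0 macrophage genes and 1 choroid plexus gene. DESeq2 called 2 fibroblast genes. With the run as a covariate 1 fibroblast gene passed as higher, *Foxc1* (adjusted p 0.0289), and 0 macrophage or choroid plexus genes passed. No gene of these lists was at 0 in every library. The part of these cells in the vascular shift was not tested.

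**Figure D4:**
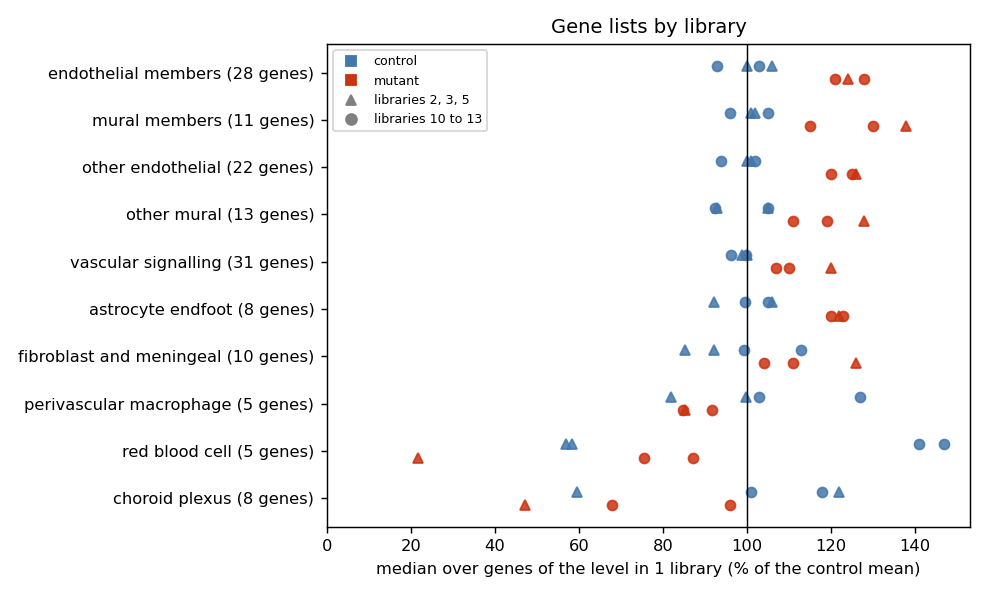
Median over the genes of each list of the level in 1 library, as a percent of the mean of the control libraries; blue is control and red mutant, triangles are libraries 2, 3 and 5 and circles libraries 10 to 13. For endothelial members the controls lie between 92.9% and 106% and the mutants between 121% and 128%, and for mural members between 96.1% and 105% and between 115% and 138%; red blood cell and choroid plexus genes spread more widely, with mutant 5 lowest.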

How the data were processed

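Forebrain RNA of 7 pools (4 *Lhx6*+/-, 3 *Lhx6*-/-) was sequenced as 36-base single reads. The authors trimmed reads with cutadapt 1.9.1, aligned them to GRCm38 transcripts with Bowtie2 2.2.9 and deposited RSEM 1.2.31 expected counts per gene, which share reads among genes that match them equally. The strand setting was not given in the sources used here. Of the deposited DESeq2 comparison only gene symbols were used; its fold changes and p-values were not. The deposited exon annotation gave positions and lengths.

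Counts were rounded and scaled by TMM. Genes reaching 10 counts in 3 or more libraries were tested with edgeR 4.0.16 (R 4.3.3), quasi-likelihood F-test, no covariate, with Benjamini-Hochberg adjustment over 19684 genes. For display, counts were divided by each library's effective size and multiplied by the mean effective size. Libraries were grouped by the genotype in the column headers; sex and RNA quality are recorded per pool and cannot be assigned to columns. No 2 libraries of a genotype agreed within sampling noise (chi-square per degree of freedom 9.93 to 70.4). Scripts were tested on simulated data. Alternatives were other scalings (RLE, upper quartile), filters, unrounded counts, DESeq2 1.42.0, limma-voom (limma 3.58.1), a covariate for the run of library numbers, each run alone, and each library left out.

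Values in every library are given for called members and, in each role group, for the member with the highest level per kb and, if none is called, the smallest p; called genes of the other lists are named, with *Vegfa*, *Pdgfb*, *Wnt7a* and *Wnt7b*. Members and lists were chosen with earlier results of these data known, so no p is adjusted over a list alone, and the direction of the group is not independent evidence. Promoter windows came from RefSeq (GRCm38.p6); 4 of the 27 start over 1000 bases from the start of the Ensembl gene. P-values measure the spread between pools of 2 animals.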

Additional observations from a re-analysis of the deposited data

Results flagged for a closer look

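In 5 of 55 control groups of 4 libraries, 1 library stood apart from the other three by Dixon's test, which chance alone gives in about 1 group of 20. Control 3 was low for *Cdh5*, at 597 normalized counts against 782 to 810 in the others (gap over range 0.868), and high for *Cd34*, at 2557 against 2094 to 2166 (0.845), and for *Sele*, at 6.03 against 1.92 to 2.19 (0.933). Control 10 was low for *Robo4*, at 299 against 384 to 385 (0.984). Control 2 was high for *Cd93*, at 1341 against 982 to 1006 (0.934). Control 3 was also the most extreme library on the first principal component, with a score of 62.1 against 44.3 for control 2 and 31.6 for mutant 5.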

How the results depend on the processing

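Of the 39 vascular genes, 13 passed as higher with DESeq2, 18 with a covariate for the run of library numbers and 17 in libraries 10 to 13 alone, against 3 as reported; leaving out 1 library gave between 1 (without mutant 5 or 13) and 6 (without control 3). The call of *Cd34* as lower was lost in libraries 2, 3 and 5 alone (0 genes), with its direction kept, and 0 to 1 genes were called lower when 1 library was left out. Of the other endothelial and mural genes 12 passed with the covariate, 0 in libraries 2, 3 and 5 alone and 2 to 5 with 1 library left out, against 6. Of the signalling genes 5 passed with DESeq2, 7 with the covariate, 6 in libraries 10 to 13 alone, 0 in libraries 2, 3 and 5 alone and 1 to 2 with 1 library left out, against 2. The counts for signalling and for other vascular genes take both directions. Other scalings (RLE, upper quartile), filters, unrounded counts and limma-voom left every count within 1.5 times. The cause of these differences was not tested, beyond that libraries 2, 3 and 5 hold 1 mutant.

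Over 55 named genes and 17 settings, 808 of 930 values kept direction and side of the threshold, 61 lost the call, 47 gained it and 14 changed sign; no gene whose sign changed was called in either fit. In libraries 2, 3 and 5 alone the log2 fold change of Icam2 was -0.085, the log2 fold change of Vtn 0.11 and the log2 fold change of Myh11 0.18. Leaving out 1 library gave -0.10 to 0.0151 for Vtn (positive without mutant 13) and -0.17 to 0.0717 for Myh11 (positive without control 11). The log2 fold change of Vegfa was 0.0221 with upper quartile scaling, 0.000334 without a filter, 0.11 with the covariate, 0.0874 in libraries 10 to 13, 0.15 in libraries 2, 3 and 5, and between -0.28 and 0.18 with 1 library left out. No paired analysis was possible because the columns of the count table carry library numbers and not the replicate numbers of the labels. A count of 0 allows up to 3 counts, 0.0921 CPM in the smallest library, and intervals for counting error do not cover the spread between pools.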

Other observations

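Genes that low oxygen induces, of glycolysis, mitophagy and pH control among others, gave 3 of 8 positive log2 fold changes with a median of -0.08, and 0 passed in edgeR with 2 at an unadjusted p of 0.05 or less, while DESeq2 called 1 higher and 1 lower. Among the forebrain genes, *Lhx2* (a cortical patterning factor) was lower at 79.3% of control (adjusted p 0.0368). With 1 library left out, it passed only without control 3 (adjusted p of up to 0.191 otherwise).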
